A study of Mus musculus with 6 samples.

Results

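The cells described here are Pi16-high fibroblasts of the adult mouse sciatic nerve, taken from libraries of postnatal day 60 (P60). They were selected on measured values, namely their own raw counts of unique molecular identifiers (UMIs, 1 per captured RNA molecule). Each had 500 to 5000 detected genes, at least 10 UMIs of Dcn, at least 3 of Pi16, none of Sox9, Osr2, Sox10, Pecam1 or Ptprc, and at most 1 of Itgb4, Cldn1 and Msln together. The gate held 1956 cells, 615, 723 and 618 in P60 replicates 1, 2 and 3, of 12602 cells kept at P60, 7827 of them with at least 10 Dcn UMIs, and of 24337 cells kept in the whole series. They were set above all against 594 Pi16-zero cells of the same libraries, which had no Pi16 UMI, had at least 5 UMIs of Clec3b and Pcolce2 together, and passed the remaining gates.

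Sciatic nerves of P1 and P60 mice (postnatal days 1 and 60) on a C57bl/6J background were dissociated with their epineurium, and the cells of 3 suspensions of each age were captured with 10x Chromium 3' v2 chemistry. The mice of both ages carried P0Cre with a ReYFP reporter, which marks Schwann cells, and a βAct-DsRed transgene, and each suspension pooled males and females in equal number, so that a replicate is a pool of animals. DsRed-positive cells were sorted at both ages, and at P1 the sort also selected against cells positive for both colours, which lowered but did not abolish the share of Schwann cells. No treatment separated the groups, and the age, the extra sort gate and any batch of the libraries cannot be told apart.

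Peripheral nerve has several connective tissue layers. Epineurial fibroblasts lie outside the fascicles, perineurial cells wrap each fascicle as a barrier, and endoneurial fibroblasts lie among the axons. In many tissues fibroblasts include an adventitial state with Pi16, Dpp4 and Cd55, often found around vessels and in fascia, and states marked by Col15a1 or F3 that lie closer to the parenchyma or to adipocytes. Pi16 encodes a secreted peptidase inhibitor, Pcolce2 an enhancer of procollagen processing and Clec3b the plasminogen-binding protein tetranectin.

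The 6 libraries held 20092957 to 29371559 UMIs in kept cells, and any pair of them shared 14 to 33 cell barcodes. Summed counts of Pi16-high cells differed between P60 replicates 1 and 2 with a chi-square of 2.11 per degree of freedom, and between P60 replicate 3 and the others with 12.9 and 11.5, so no library repeated another and replicate 3 stood apart. Pi16-high cells had a median of 6059, 5322 and 4672.5 UMIs in replicates 1, 2 and 3, against 4758, 4119.5 and 3603 in Pi16-zero cells. The members were thus the deeper group in every library. Levels below are CPM, the UMIs of a gene summed over the cells of a library and scaled to the same total in each, means are given ± SD over 3 libraries, and log2 differences ± SE and adjusted p-values come from the edgeR quasi-likelihood test on these sums, with the library as a block where cell groups of the same libraries were compared.

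The Pi16 counts that chose the cells spread widely. Pi16 ranged from 3 to 235 UMIs per cell around a median of 16, with quartiles at 7 and 35, and 1054 of the 1956 cells had at least 15. Just inside the threshold 255 cells had 3 or 4 UMIs, and just outside it 626 cells that met every other condition had 1 or 2. At least 1 Pi16 UMI was also found in 32.7% ± 11.2 of immune cells (Ptprc present, fewer than 10 Dcn UMIs, a median of 4013 UMIs), whereas 3 or more were found in 2.61%, 2.75% and 1.16% of them in the 3 libraries. A count of 1 or 2 is therefore not read as expression here.

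**Figure D1:**
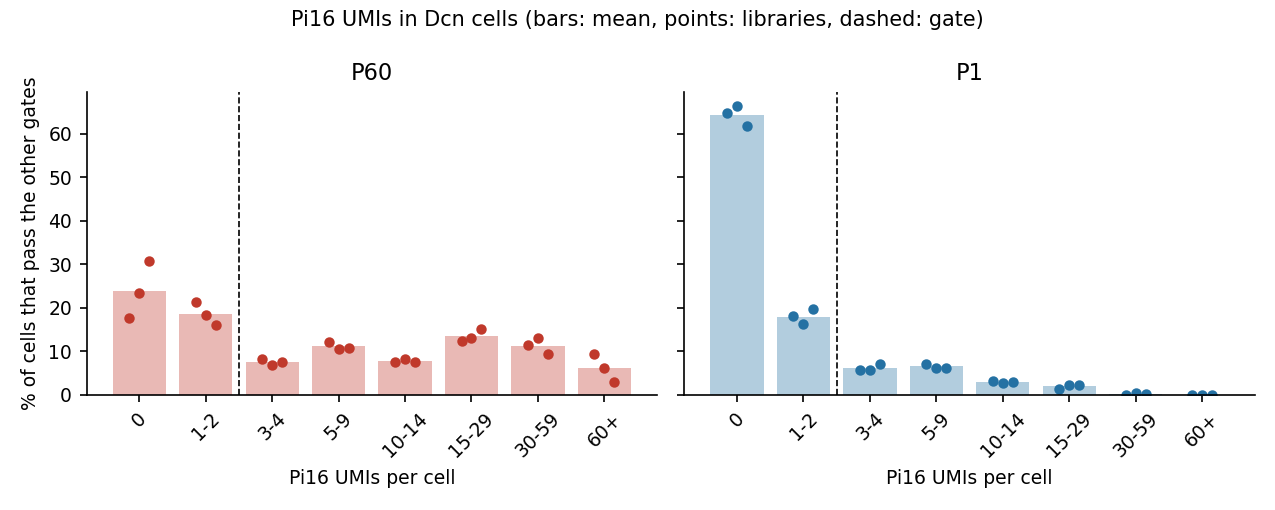
Share of the Dcn cells passing the other gates (%, vertical axis) by Pi16 UMIs per cell (horizontal axis, in bins) at P60 and P1, with bars for the mean, points for the 3 libraries and a dashed line at the gate of 3 UMIs. At P60 cells above the gate spread over all bins around a median of 16 UMIs, whereas at P1 few cells have 15 or more.

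Pi16-high cells made up 26.2% (24.5% to 28.1%), 23.7% (22.2% to 25.2%) and 25.5% (23.7% to 27.2%) of the Dcn cells of P60 replicates 1, 2 and 3, with exact Clopper-Pearson 95% intervals that cover counting error only. Under the same gate 308 cells were found at P1, 5.60%, 6.05% and 5.84% of the Dcn cells there. The highest P1 library lay below the lowest P60 library, and as the rule and the different sorts set these shares, no test was made. The gate on Osr2, a transcription factor of connective tissue, removed more cells than any other. Of 3081 P60 cells with enough Dcn and Pi16, 713 (23.1%) were lost to Osr2 alone, and 236 of 631 (37.4%) at P1. With Osr2 left out of the gate, an alternative chosen after seeing the data, the mean P60 share rose from 25.1% to 34.2%, and these cells are described below beside the members.

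The genes of the gate and the markers of the nerve layers were read first. Pi16 stood at 4607, 4948 and 4252 CPM in the 3 libraries. Clec3b stood at 4459, 4630 and 4029 CPM, against 3260, 3208 and 2762 in Pi16-zero cells, although the Pi16-zero cells and not the members had been chosen for it. Pcolce2 was at 904 ± 38.2 CPM against 492 ± 28.9, and 97.8% of the members reached 5 UMIs of both genes together, 44 cells falling short. The gate itself set the presence of Pi16. Clec3b and Pcolce2, not required of the members, were present in every library and did not overlap between the cell groups. All 3 are genes of the selection and were described without a test. Dcn, which encodes the proteoglycan decorin, was lower in the members, at 17541, 15884 and 12473 CPM against 26416, 24236 and 21865.

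Ly6c1, a surface protein that marks epineurial cells in this nerve, stood at 1787 ± 322 CPM in Pi16-high cells, 573 ± 158 in Dcn cells with Sox9, a gate for endoneurial cells, and 112 ± 12.9 in Dcn cells with Itgb4, Cldn1 or Msln, a gate for perineurial cells. Pdgfra, the receptor that marks nerve fibroblasts, stood at 281 ± 77.1 CPM in the members. Col2a1, an endoneurial collagen, gave 2 UMIs in all members, and Slc2a1, the glucose transporter of the perineurial barrier, stood at 24.2 ± 4.15 CPM against 1058 ± 87.8 in the perineurial gate. The markers of the endoneurium were not low as a list. The 10 endoneurial markers summed to 1159 to 1819 CPM in the members, 1538 to 2115 in Dcn cells with Sox9 and 566 to 732 in Pi16-zero cells, and most of the sum in the members came from myocilin (Myoc), at 1513 ± 358 CPM there and 1092 ± 306 in Dcn cells with Sox9.

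Markers of immune, endothelial and perineurial cells were low but not absent. The 10 immune markers summed to 179 to 411 CPM in the members against 41415 to 53158 in immune cells, the 10 endothelial markers to 87.6 to 97.6 against 7982 to 9435 in cells with Pecam1, and the 10 perineurial markers to 66.3 to 112 against 4808 to 5094 in the perineurial gate. No marker of these 3 lists was at 0 UMIs among the members. The 10 Schwann cell markers summed to 486 to 613 CPM, with Gfra3 at 0 UMIs. They summed to 161 to 296 CPM in cells with Pecam1 and 247 to 722 in immune cells. No group of Schwann cells or adipocytes was summed for comparison. The 10 adipocyte markers ran from 57.7 to 713 CPM, with Lep at 0 UMIs, and the highest value belonged to replicate 1, where Cfd, the adipocyte protease adipsin, was at 413 CPM against 2.05 and 0 in replicates 2 and 3. Car3, at 107, 21.7 and 0 CPM, rested on the same library, and the part of adipocyte RNA in other results was not tested.

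Against Pi16-zero cells of the same libraries, Pi16-high cells carried more of the adventitial fibroblast genes and less of the Col15a1 and F3 genes. Of 10160 genes tested at P60, 1319 (13%) passed an adjusted p of 0.05, 701 (6.9%) higher and 618 (6.08%) lower in Pi16-high cells, with 259 changed at least 2-fold in each direction. The libraries of the cell groups did not overlap for 2110 genes (20.8%). The count was 436 without the library as a block, 798 without replicate 2 and 1196 without replicate 3, the library that stood apart. The 10 higher genes and 9 of the 10 lower genes with the largest called changes are described in turn. They were chosen among genes of at least 50 CPM in the higher group with the same direction in every library. These genes kept their direction and their call in every alternative in which they were tested. As the choice favours a kept direction, this is no independent evidence of it.

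Of the 24 adventitial fibroblast genes, all of which were tested, 23 were higher and none lower, with a median log2 difference of 2.04 against 0.00 over all genes. The list was drawn up with this pattern known and is no independent evidence of it. The member without a call was Tnfaip6, a hyaluronan-binding protein, at 81.9 ± 32.5 against 71.7 ± 6.86 CPM. Dpp4, a membrane protease, stood at 197, 212 and 290 CPM in the 3 libraries of Pi16-high cells and at 43.4, 38.0 and 81.1 in Pi16-zero cells, a log2 difference of 2.11 ± 0.12 (adjusted p = 1.6e-12). Cd55, the complement decay-accelerating factor, stood at 260, 256 and 275 CPM against 60, 51.6 and 34.7 (2.40 ± 0.13). Sema3c, a secreted semaphorin, stood at 363, 386 and 570 CPM against 83.0, 78.9 and 93.9 (2.32 ± 0.10). No library of either group crossed into the range of the other for these 3 genes.

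The shares of single cells ran the same way. With every cell thinned to 2000 UMIs, which left 1905 of the members and 568 of the Pi16-zero cells, a Sema3c UMI was found in 51.9% ± 7.36 of Pi16-high and 13.7% ± 0.0841 of Pi16-zero cells. A Cd55 UMI was found in 32.3% ± 1.71 and 8.03% ± 0.501 of them, and a Dpp4 UMI in 34.9% ± 7.12 and 7.85% ± 4.16. Immune cells gave 2.57% for Sema3c, 1.71% for Cd55 and 3.06% for Dpp4, below the Pi16-zero cells in each case. The part of free RNA in these shares was not tested. Without thinning the shares in Pi16-high cells were 74.8% for Sema3c, 55.5% for Cd55 and 58.97% for Dpp4, at a median of 5387 UMIs in the members, 4158.5 in Pi16-zero cells and 4013 in immune cells.

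Some adventitial genes were almost absent from Pi16-zero cells. Cmah, the hydroxylase that makes the sialic acid Neu5Gc, gave 365 UMIs in Pi16-high and 2 in Pi16-zero cells, a ratio of their levels of 43.9 (counting interval 12.1 to 364). Akr1c18, a hydroxysteroid dehydrogenase, gave 127 UMIs against 1, a ratio of 30.5 (5.38 to 1215). Both ratios are imprecise, as their intervals show. Aldh1a3, which makes retinoic acid from retinal, stood at 76.4, 94.1 and 126 CPM against 2.55, 3.89 and 7.72, the largest log2 difference among the genes of at least 50 CPM at 4.36 ± 0.23 (adjusted p = 3.5e-13). Dact2, a modulator of Wnt and TGF-beta signalling, stood at 92.1, 92.6 and 87.4 CPM against 10.2, 5.84 and 1.29 (3.93 ± 0.25). For both genes every library of Pi16-high cells lay above every library of Pi16-zero cells.

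**Figure D2:**
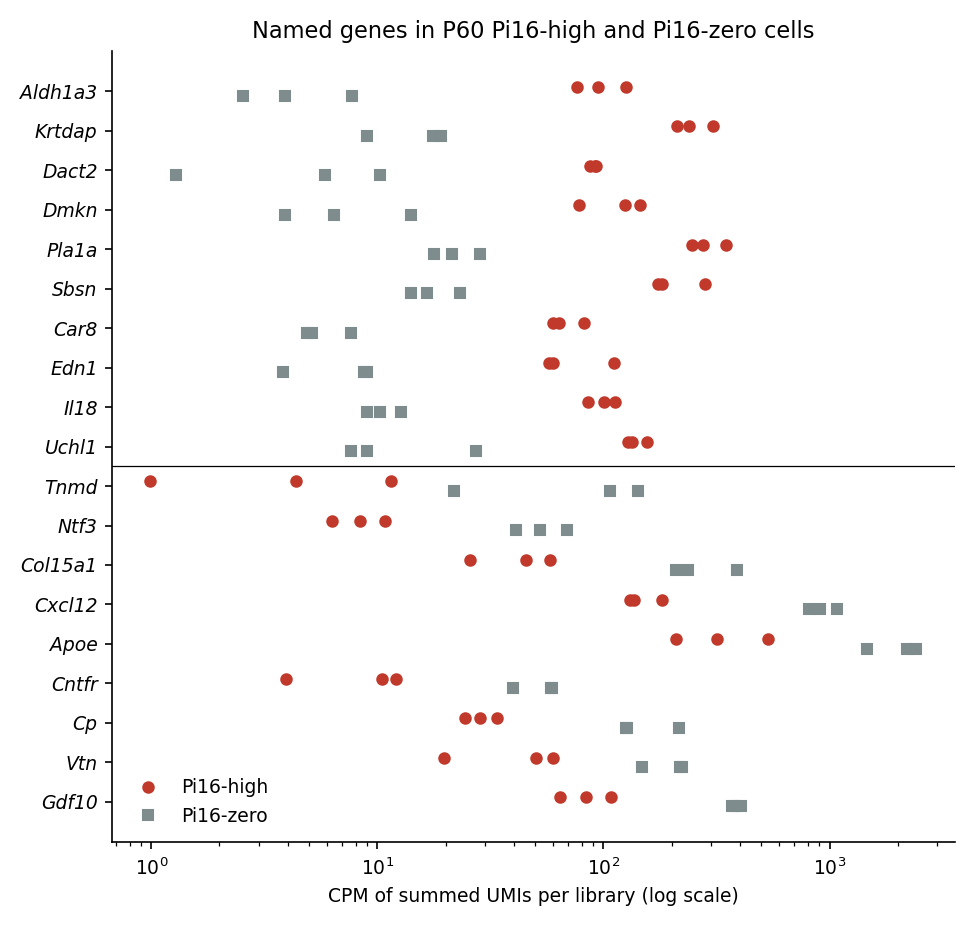
CPM (log axis) of 19 of 20 named genes, 1 point per P60 library, for Pi16-high and Pi16-zero cells. The 20 had the largest called differences among genes of at least 50 CPM in the higher group with the same direction in every library. Aldh1a3 lies between 76.4 and 126 CPM in Pi16-high cells and at most at 7.72 in Pi16-zero cells, and Cxcl12 between 132 and 181 against 809 to 1076.

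Genes best known from the differentiating epidermis stood among the higher ones. Krtdap, Sbsn and Dmkn encode secreted proteins that keratinocytes release as they mature, and the genes lie side by side on chromosome 7. Krtdap stood at 211, 239 and 307 CPM in Pi16-high cells and 19.2, 17.5 and 9.01 in Pi16-zero cells (log2 difference 3.98 ± 0.18, adjusted p = 8.9e-15). Sbsn stood at 182, 175 and 281 CPM against 14, 16.6 and 23.2 (3.52 ± 0.15), and Dmkn at 78.0, 125 and 145 CPM against 14, 3.89 and 6.43 (3.86 ± 0.26). The groups did not overlap for any of the 3 genes. A Krtdap UMI was present in 28.0% ± 5.29 of Pi16-high cells, and after thinning in 20.6% ± 4.79 of them, 1.39% ± 0.714 of Pi16-zero cells and 0.725% ± 1.26 of immune cells, so most members gave no Krtdap UMI at this depth.

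The 3 genes lie on the plus strand within 39.6 kb in the GENCODE annotation of GRCm38. Sbsn spans chr7:30751471-30756134, Dmkn chr7:30763756-30781063 and Krtdap chr7:30787896-30791097, and all 3 are annotated as protein-coding. Sbsn overlaps a processed transcript named Tmem147os on the same strand, with which it may share reads, and that transcript did not pass the test (log2 difference -0.15, adjusted p = 0.857). All 3 neighbours were higher in Pi16-high than in Pi16-zero cells at P60, whereas they differed from each other between the ages, as given below. The 250 bases before their RefSeq starts (GRCm38.p6, plus strand, from 5' to 3') are shown with those of Pi16. Matches to the motifs searched are in capitals. They cover chr17:29318632-29318881 for Pi16, chr7:30751221-30751470 for Sbsn, chr7:30763506-30763755 for Dmkn, the first of its 3 starts, and chr7:30787655-30787904 for Krtdap.
Pi16: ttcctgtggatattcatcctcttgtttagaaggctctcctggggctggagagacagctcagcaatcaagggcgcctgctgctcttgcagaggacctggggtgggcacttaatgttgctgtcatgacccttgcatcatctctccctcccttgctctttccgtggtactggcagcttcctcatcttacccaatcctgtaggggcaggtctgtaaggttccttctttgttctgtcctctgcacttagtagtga
Sbsn: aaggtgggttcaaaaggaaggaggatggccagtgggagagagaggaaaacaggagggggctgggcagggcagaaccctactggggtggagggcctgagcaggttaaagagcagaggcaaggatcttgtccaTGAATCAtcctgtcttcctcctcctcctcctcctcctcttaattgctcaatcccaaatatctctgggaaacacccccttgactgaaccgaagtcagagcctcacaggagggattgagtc
Dmkn: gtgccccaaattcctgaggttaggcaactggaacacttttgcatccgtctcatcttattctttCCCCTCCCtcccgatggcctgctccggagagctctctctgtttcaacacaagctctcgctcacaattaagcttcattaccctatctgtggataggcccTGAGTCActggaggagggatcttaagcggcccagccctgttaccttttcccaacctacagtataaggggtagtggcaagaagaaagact
Krtdap: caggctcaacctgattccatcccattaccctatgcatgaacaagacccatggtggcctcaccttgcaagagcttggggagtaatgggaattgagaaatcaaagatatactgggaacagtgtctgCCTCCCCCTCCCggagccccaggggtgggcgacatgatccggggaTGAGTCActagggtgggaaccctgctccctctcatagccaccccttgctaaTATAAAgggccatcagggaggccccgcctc

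The motifs were searched on both strands by their letters. TGANTCA, the site of AP-1 factors, was found at -119 from the start of Sbsn, at -89 in Dmkn and at -81 in Krtdap, and not in the Pi16 window. The windows of Dpp4, Cd55, Sema3c, Col15a1 and Cxcl12, not shown, were searched in the same way and did not hold it either. It occurs in 6.73% of the 32536 promoter windows of this length. TATAAA, found in 12.3% of windows, lay at -30 in Krtdap and at -227 in Dpp4. CCNCNCCC, a site of KLF factors found in 46.2% of windows, lay at -187 in Dmkn and at the overlapping positions -126 and -122 in Krtdap. It also lay in each of the windows not shown. TGACGTCA, found in 1.56% of windows, was in none of the 4. These matches describe the letters of the windows and not bound factors.

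The remaining genes with large positive differences had diverse roles. Pla1a, a secreted phospholipase, stood at 246, 275 and 349 CPM against 17.9, 21.4 and 28.3 (log2 difference 3.66 ± 0.13). Uchl1, a deubiquitinase best known from neurons, stood at 128, 156 and 134 CPM against 7.66, 27.3 and 9.01 (3.14 ± 0.20). Il18, a cytokine, stood at 85.0, 101 and 112 CPM against 10.2, 12.7 and 9.01 (3.17 ± 0.20). Each of these 3 was higher in every library of Pi16-high cells than in any library of Pi16-zero cells. Edn1, the vasoconstrictor endothelin 1, was at 76.0 ± 30.2 CPM against 7.20 ± 2.92 (3.31 ± 0.23). The 10 endothelial markers summed to 87.6 to 97.6 CPM against 79.1 to 97.3, in cell groups both gated to hold no Pecam1 UMI. The part of endothelial RNA in the Edn1 difference was not tested. Car8, a carbonic anhydrase-related protein, was at 68.3 ± 11.8 CPM against 5.89 ± 1.54 (3.51 ± 0.24).

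Of 19 Col15a1 and preadipocyte genes tested, 15 were lower in Pi16-high cells and 2, Ebf2 and Gpc3, were higher, with a median log2 difference of -1.24. Col15a1, a collagen of basement membrane zones, stood at 58.1, 45.3 and 25.7 CPM in Pi16-high cells and 236, 209 and 391 in Pi16-zero cells (log2 difference -2.68 ± 0.19, adjusted p = 7.8e-11). Penk, which encodes the enkephalin precursor, stood at 103, 101 and 111 CPM against 495, 443 and 417 (-2.14 ± 0.09). Apoe, the lipid carrier, stood at 532, 317 and 209 CPM against 2198, 2425 and 1459 (-2.62 ± 0.10). The groups did not overlap for any of these. Apoe was at 10261 ± 1862 CPM in immune cells, whose 10 markers summed to 179 to 411 CPM in Pi16-high and 175 to 824 in Pi16-zero cells, and the part of free immune RNA in the Apoe difference was not tested. Cxcl14, a chemokine, was at 166 ± 64.6 against 731 ± 145 CPM (-2.23 ± 0.17).

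Of 11 F3 fibroblast genes, 10 were tested, 9 were lower and none higher, with a median log2 difference of -1.43. Gdf10, a TGF-beta family member, stood at 108, 83.9 and 64.0 CPM against 387, 404 and 371 (log2 difference -2.23 ± 0.10, adjusted p = 2.5e-14). Its groups were far apart in every library. Clec11a, a secreted growth factor, was at 53.2 ± 19.3 against 165 ± 20.04 CPM, Fmo2, a monooxygenase, at 32.2 ± 10.3 against 124 ± 5.39, and Adam12, a metalloprotease, at 2.19 ± 0.588 against 12.4 ± 4.54.

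Signals to other cells were split in direction. Of 20 chemokine, cytokine and receptor genes tested, 9 were lower and 4 higher. Cxcl12, the ligand of Cxcr4, stood at 181, 136 and 132 CPM against 908, 1076 and 809 (log2 difference -2.67 ± 0.09, adjusted p = 1.6e-16), and Ccl19, a ligand of Ccr7, at 17.0 ± 3.11 against 74.7 ± 27.5 CPM. Ackr3, a receptor that takes up Cxcl12, went the other way at 259, 324 and 493 CPM against 81.7, 84.7 and 126 (1.84 ± 0.10). Ligand and scavenging receptor lay on opposite sides in all 3 libraries. Of 14 complement genes tested, 8 were lower, with vitronectin (Vtn), a regulator of the terminal pathway, at 43.4 ± 21.0 against 196 ± 41.9 CPM, C2 at 61.7 ± 21.1 against 186 ± 7.06 and C4b at 153 ± 34.8 against 368 ± 16.1, both parts of the classical convertase. Cd55, an inhibitor of complement, was the 1 higher gene of that list.

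Growth and guidance factors divided in the same way. Of 20 axon guidance and neurotrophic genes tested, 7 were higher and 7 lower. Ntf3, the neurotrophin NT-3, stood at 8.37, 10.7 and 6.27 CPM against 52.3, 69.1 and 41.2 (log2 difference -2.71 ± 0.19), and Cntfr, the receptor for ciliary neurotrophic factor, at 8.83 ± 4.29 against 52.7 ± 11.1 CPM (-2.60 ± 0.21). Besides Sema3c, the semaphorin Sema3e was higher at 16.9 ± 8.68 against 2.26 ± 0.866 CPM and the ephrin Efna5 at 23.5 ± 4.22 against 3.33 ± 1.33. Ntf3 and Cntfr, which are not ligand and receptor of each other, were thus among the lower genes, and these guidance ligands among the higher ones.

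Of 19 Wnt pathway genes, 5 were higher and 5 lower. The ligand Wnt10b was at 44.4 ± 11.1 against 4.72 ± 2.68 CPM, the ligand Wnt2 at 74.5 ± 12.9 against 17.5 ± 11.6, and Sfrp2, a secreted Wnt modulator, at 1591 ± 451 against 483 ± 171. Of 25 TGF-beta and BMP genes, 6 were higher and 6 lower, with the ligand Bmp7 at 12.3 ± 0.0499 against 2.26 ± 0.866 CPM, the ligand Bmp5 at 2.96 ± 1.36 against 19.3 ± 18.0 and Id2, a target of BMP signals, at 83.8 ± 9.13 against 171 ± 18.6. Neither list leaned to one side, with median log2 differences of 0.12 and -0.13.

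Among matrix genes, more collagens were lower than higher and more microfibril genes higher than lower. Of 14 collagens tested, 9 were lower and 2 higher, with a median log2 difference of -0.50. Col14a1, a collagen on fibril surfaces, was higher at 439, 457 and 596 CPM against 227, 277 and 266 (0.91 ± 0.09, adjusted p = 1.5e-08), as was Col12a1 of the same class at 55.9 ± 16.7 against 29.6 ± 7.28. Col18a1, a collagen of basement membranes, was at 15.3 ± 2.84 against 42.5 ± 1.48 CPM and Col5a3 at 90.5 ± 15.5 against 168 ± 31.5. The higher collagens were thus both of the fibril-associated class. Of 19 elastic fibre and microfibril genes, 8 were higher and 3 lower, with a median of 0.00. Fbn1, fibrillin 1, stood at 929, 1020 and 1235 CPM against 402, 424 and 454 (1.28 ± 0.07), Mfap5, a microfibril protein, at 3183 ± 202 against 1359 ± 252 CPM, the elastin interface protein Emilin2 at 273 ± 15 against 110 ± 18.2 and Ltbp1, which tethers latent TGF-beta, at 110 ± 27.1 against 64.3 ± 23.4.

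Of 23 genes of collagen processing, proteases and inhibitors, 13 were lower and 6 higher. Mmp3, stromelysin, stood at 168 ± 27.9 against 414 ± 79.4 CPM, the metalloprotease Mmp19 at 25.2 ± 4.67 against 43.7 ± 11.1 and Serpine2, a protease inhibitor, at 145 ± 15.5 against 298 ± 67.9, whereas the aggrecanase Adamts5 was higher at 420 ± 111 against 164 ± 26.4. Of 19 proteoglycan and hyaluronan genes, 7 were lower and 2 higher. Lum, lumican, stood at 809, 735 and 573 CPM against 1810, 1697 and 1280 (log2 difference -1.21 ± 0.06). Fibromodulin (Fmod) was lower at 44.3 ± 27.1 against 177 ± 84.0 CPM and Ecm2 at 83.9 ± 16.0 against 219 ± 35.8, and the list as a whole had a median log2 difference of -0.18. Has1, a hyaluronan synthase, was called higher at 21.2, 14.8 and 50.1 CPM against 1.28, 0 and 21.9, with both groups highest in replicate 3.

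In the IGF axis 4 of 9 genes tested were lower and 2 higher. The binding protein Igfbp3 stood at 236 ± 36.2 against 733 ± 85.9 CPM, its relative Igfbp7 at 1027 ± 338 against 2656 ± 548 and Pappa, a protease that cleaves IGF-binding proteins, at 2.69 ± 1.31 against 21.7 ± 6.62, while Igfbp5 was higher at 2193 ± 191 against 848 ± 183. Of 12 retinoid genes, Aldh1a3 was the 1 higher gene and 6 were lower, among them the retinol receptor Stra6 (4.33 ± 2.76 against 17.0 ± 0.501 CPM), the retinol carrier Rbp4 (39.7 ± 11.3 against 106 ± 24.0) and the retinoic acid hydroxylase Cyp26b1 (10.8 ± 3.86 against 28.5 ± 27.8).

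**Figure D3:**
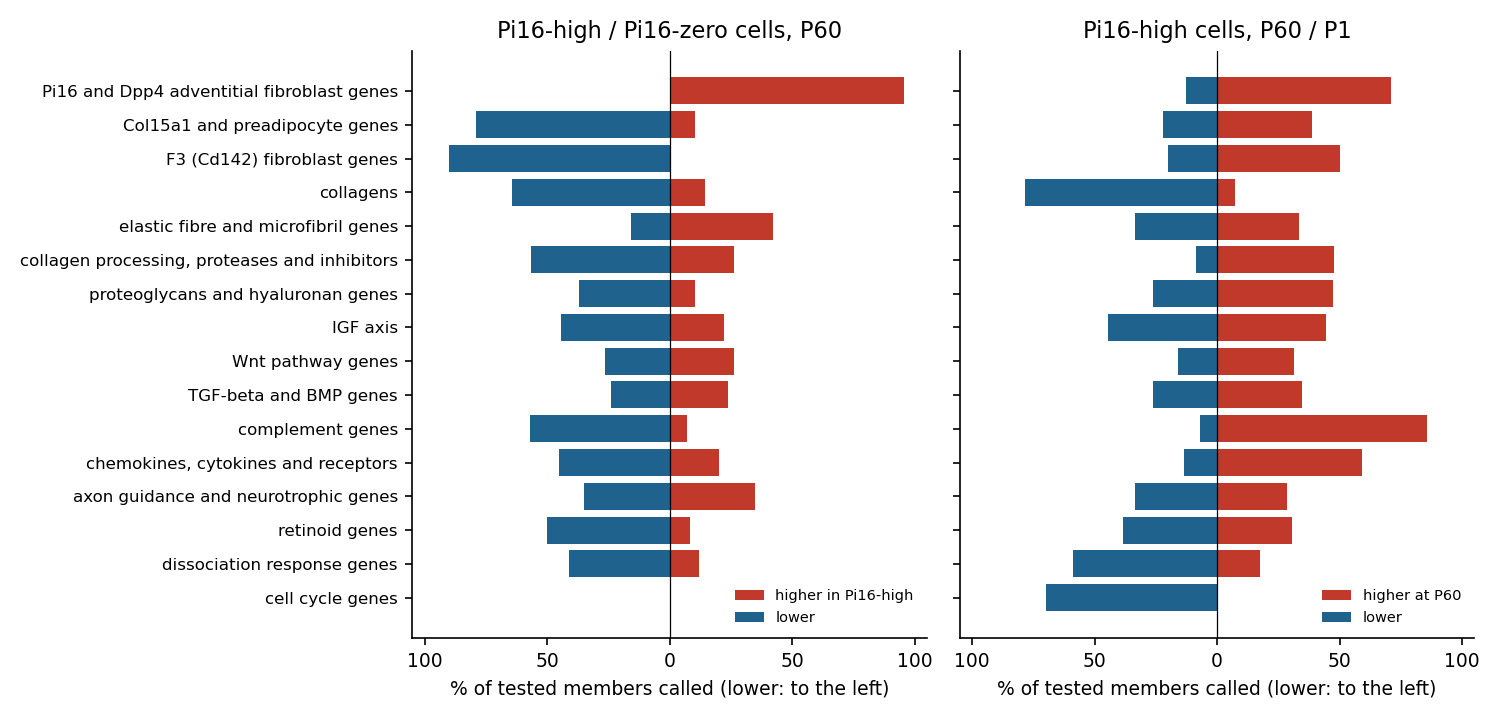
Percent of tested list members called higher (red, right) and lower (blue, left) for Pi16-high against Pi16-zero cells at P60 and for P60 against P1 in Pi16-high cells. In the left panel 23 of 24 adventitial genes lie to the right and 15 of 19 Col15a1 and preadipocyte genes to the left, and in the right panel 12 of 14 complement genes lie to the right and 11 of 14 collagens to the left.

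A few differences involved markers of other structures. Tnmd, the tendon protein tenomodulin, stood at 11.5, 4.35 and 0.989 CPM in Pi16-high cells and at 142, 107 and 21.9 in Pi16-zero cells (log2 difference -4.06 ± 0.20). Both groups were lowest in replicate 3, and the groups did not overlap. Thbs4 and Comp, also of tendon, were lower at 52.5 ± 29.2 against 209 ± 42.8 and 82.9 ± 42.6 against 187 ± 54.1 CPM, and the remaining 8 markers of the tendon and mesothelial list were too low to be tested. Myoc, myocilin, listed among endoneurial markers, was higher in Pi16-high cells at 1513 ± 358 against 541 ± 101 CPM, whereas the transcription factors Etv1 and Meox1 of that list were lower at 2.79 ± 1.01 against 18.2 ± 6.56 and 5.50 ± 3.24 against 22.3 ± 6.36, as was Cpxm2, a carboxypeptidase-like protein, at 35.3 ± 19.8 against 49.6 ± 19.7.

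Rgs5, a mural marker, was called higher at 17.4 ± 5.13 against 3.22 ± 1.70 CPM, and Krt19, a perineurial marker, at 13.7 ± 2.02 against 3.00 ± 1.49. Without the negative gates on Pi16-zero cells Rgs5 lost its call and Krt19 turned lower (log2 difference -2.92). S100b, a Schwann cell marker, was lower at 46.0 ± 0.659 against 70.8 ± 9.88 CPM. Cp, ceruloplasmin, was lower at 28.9 ± 4.85 against 156 ± 51.0 CPM. Of 17 genes known to respond to dissociation, 7 were lower, with Junb at 613 ± 44.6 against 907 ± 176 CPM, Zfp36 at 120 ± 48.4 against 172 ± 52.5 and Dusp1 at 219 ± 18.6 against 313 ± 39.6, and 2 were higher, with Atf3 at 70.3 ± 27.5 against 46.4 ± 28.1. The whole list summed to 3774 to 5051 CPM in Pi16-high and 4196 to 6352 in Pi16-zero cells, and its part in the other differences was not tested.

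The members also varied with their own Pi16 count. In the order of Pi16-zero cells, cells of 1 or 2 Pi16 UMIs, and members of 3 to 4, 5 to 14 and at least 15 UMIs, Dpp4 had mean levels of 54.1, 78.5, 97.3, 169 and 288 CPM. Cd55 ran through 48.8, 79.9, 115, 190 and 327 CPM, and Krtdap through 15.2, 25.7, 55.1, 101 and 360. These genes were highest in the cells with most Pi16, and for Dpp4 the cells just outside the threshold, with an SD of 21.8, and just inside it, with an SD of 34.6, differed by less than that spread. Gdf10 ran down through 387, 325, 222, 129 and 39.8 CPM, and Col15a1 through 279, 189, 114, 70.1 and 17.1. Cxcl12 ran through 931, 571, 299, 171 and 111 CPM. The order is a description, since the bins come from a gene read in the same cells. Members of at least 15 Pi16 UMIs also had more UMIs in all, a median of 5946 against 4205 in those of 3 to 4 and 4391 in those of 5 to 14, and made up 54.5%, 55.6% and 51.3% of the members in the 3 libraries.

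The Osr2 cells that the gate removed stood near the top of this order. Pi16 was at 6052 ± 742 CPM in them against 6602 ± 748 in the members of at least 15 UMIs. Dpp4 was at 303 ± 37.2 against 288 ± 44.3 CPM, Cd55 at 353 ± 48.9 against 327 ± 23.4 and Krtdap at 532 ± 95.1 against 360 ± 48.3. Gdf10 was at 16.2 ± 8.17 against 39.8 ± 16.2 CPM and Col15a1 at 27.6 ± 13.3 against 17.1 ± 9.63. The gate on Osr2 thus took out cells whose levels of these genes lay beside those of the members richest in Pi16, and the differences between them were not tested. Dcn cells with Sox9 were of another kind, with Col15a1 at 1189 ± 314 CPM and Dpp4 at 81.7 ± 28.6. With Osr2 left out of the gate 1781 genes were called against Pi16-zero cells.

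**Figure D4:**
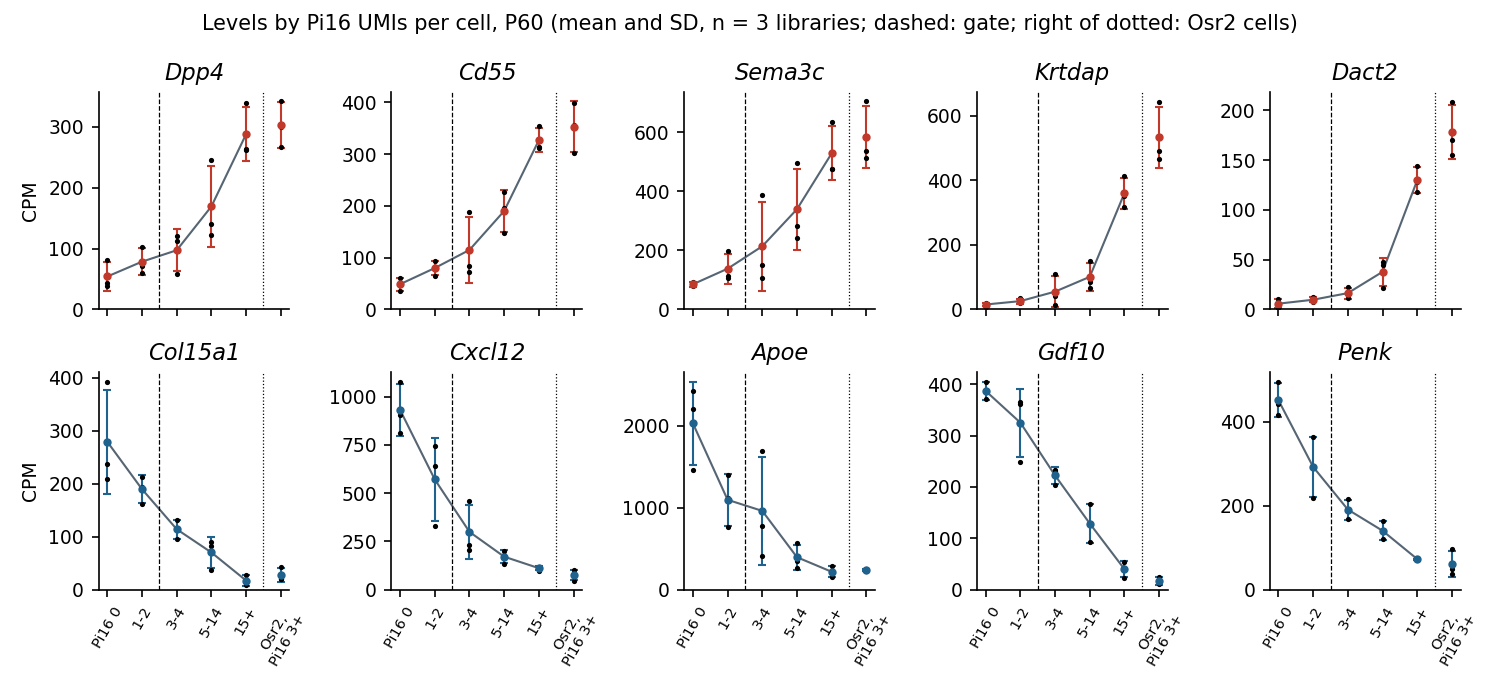
CPM of 10 genes (vertical axes) by Pi16 UMIs per cell at P60, as mean ± SD (coloured) with the 3 libraries (black), for Pi16-zero cells, cells of 1 or 2 UMIs, members in 3 bins and, right of the dotted line, Osr2 cells of at least 3 UMIs, with the gate dashed. Across the first 5 groups mean Dpp4 runs from 54.1 to 288 CPM and mean Gdf10 from 387 to 39.8.

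Against all 5871 other Dcn cells of P60, which include endoneurial and perineurial cells and the Osr2 cells above, 4989 of 12810 genes (38.9%) were called, 2418 (18.9%) higher and 2571 (20.1%) lower in Pi16-high cells. The groups did not overlap for 4726 genes (36.9%). The count was 2619 without the library block and 4589 without replicate 3, and with scaling by library size alone the share of higher calls moved from 48.5% to 36.9%. The gates on Itgb4, Cldn1, Msln and Sox9 shape this comparison. All 10 perineurial markers were lower, with a median log2 difference of -5.53. Mpzl2, an adhesion protein, stood at 1.31, 2.05 and 1.32 CPM against 110, 135 and 154 (-6.27 ± 0.14), and Sfrp5, a secreted Wnt antagonist, at 90.4 ± 36.0 against 4468 ± 1066 (-5.57 ± 0.13). Of 9 endoneurial markers 7 were lower and 1 higher.

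The differences in the other direction were smaller. Sfrp2 stood at 1423, 1249 and 2102 CPM against 492, 395 and 434 (log2 difference 1.91 ± 0.13, adjusted p = 3.9e-07), and without knowledge of how strand was counted it cannot be told apart from Gm26771, which overlaps it on the opposite strand. Smpd3, a neutral sphingomyelinase, stood at 166, 237 and 555 CPM against 64.5, 62.5 and 115 (1.96 ± 0.14), and was highest in replicate 3 in both groups. Gfpt2, an enzyme of hexosamine synthesis, was at 274 ± 65.3 against 87.4 ± 14 CPM and Itga11, a collagen-binding integrin, at 69.4 ± 17.3 against 22.3 ± 3.21. Of 21 elastic fibre genes tested, 17 were higher and none lower, with the microfibril protein Mfap4 at 374 ± 205 against 116 ± 44.8 CPM, Loxl1, which crosslinks elastin, at 478 ± 27.1 against 183 ± 44.9 and Eln, elastin, at 335 ± 42.2 against 138 ± 37.8. Of the 24 adventitial genes 20 were higher and 2 lower.

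The same gate at P1 gave libraries that the rule did not use. There 308 Pi16-high cells (90, 108 and 110) were set against 783 Pi16-zero cells, with Pi16 at 1037, 1345 and 1202 CPM, below every P60 library. Of 8337 genes tested, 1179 (14.1%) were called, 616 (7.39%) higher and 563 (6.75%) lower, and the libraries did not overlap for 2325 (27.9%). The count was 777 without P1 replicate 1. The adventitial list had 21 of 23 tested genes higher and 1, the alarmin Il33, lower. Dpp4 stood at 101, 99.2 and 88.1 CPM against 23.7, 30.5 and 23.1 (log2 difference 1.94 ± 0.17) and Cd55 at 111, 109 and 108 against 14.7, 22.2 and 26.8 (2.39 ± 0.17). Every library of P1 Pi16-high cells lay above every library of P1 Pi16-zero cells for both genes.

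Among the 701 genes higher at P60, 589 were tested at P1, 497 of these (84.4%) had the same sign and 283 were called in the same direction, 18 in the opposite one. Among the 618 lower at P60, 476 were tested at P1, 337 (70.8%) had the same sign, 173 were called in the same direction and 33 in the opposite one. The 456 genes called alike at both ages made up 34.6% of the P60 calls and 38.7% of the P1 calls, and these comparisons share no library. Krtdap was at 228, 327 and 201 CPM against 32.7, 21.6 and 15.6 at P1 (log2 difference 3.50 ± 0.14), and in Pi16-high cells it did not pass the test between the ages (252 ± 49.2 CPM at P60 and 252 ± 66.5 at P1, adjusted p = 0.93). Sbsn was higher at P1 too (19.8 ± 6.29 against 6.24 ± 1.58 CPM, 1.66 ± 0.36), while Dmkn, at 3.95 ± 2.43 against 1.69 ± 1.90 CPM, was too low there to be tested.

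**Figure D5:**
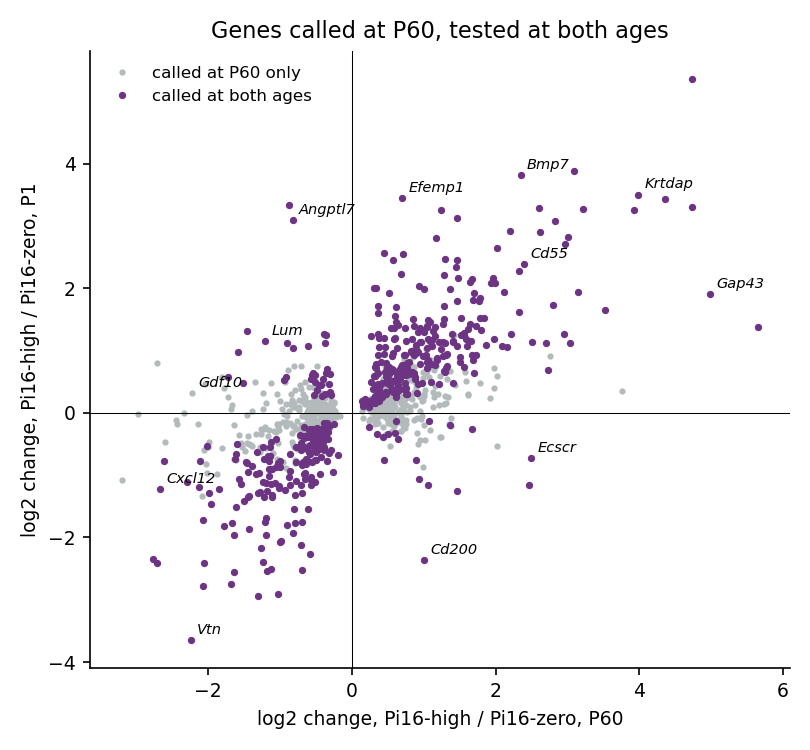
Log2 difference of Pi16-high against Pi16-zero cells at P1 (vertical axis) and at P60 (horizontal axis) for each gene called at P60 and tested at both ages, in purple where also called at P1. Krtdap has 3.98 at P60 and 3.50 at P1, whereas Cd200 has 1.01 and -2.37, and Angptl7 -0.83 and 3.09.

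Other genes set the cells apart more at P1 than at P60. Efemp1, fibulin 3, stood at 213, 204 and 168 CPM against 12.2, 17.7 and 24.1 at P1 (log2 difference 3.45 ± 0.16) and at 479 ± 45.3 against 289 ± 54.6 at P60 (0.70 ± 0.10). Ly6a, the surface antigen Sca-1, stood at 2281, 2291 and 1955 CPM against 344, 445 and 437 at P1 (2.46 ± 0.06) and at 3565 ± 383 against 2353 ± 289 at P60 (0.57 ± 0.05). The members were the higher group at both ages, and the Pi16-zero cells had more of both transcripts at P60 than at P1. Sfrp5 stood at 3.16, 2.92 and 4.07 CPM against 78.2, 110 and 127 at P1 (-4.87 ± 0.29) and at 90.4 ± 36.0 against 94.1 ± 40.3 at P60, where it was not called (adjusted p = 0.74). Col8a1, a short-chain collagen, was at 14.9 ± 3.52 against 125 ± 11.5 CPM at P1 and 283 ± 108 against 294 ± 65.1 at P60.

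A test of the difference between the ages, with age and cell group as an interaction, called 454 of 9784 genes (4.64%), 201 (2.05%) with a more positive difference at P60 and 253 (2.59%) with a more negative one. The count was 139 without the library block, 301 and 291 without P1 replicates 1 and 2, and 476 without P60 replicate 3. The share of more positive calls, 44.3%, was 59.6% with scaling by library size alone, 29.3% with DESeq2 and 34.5% without the block. The adventitial list had 5 of 24 genes with a more positive and 4 with a more negative difference at P60, and the Col15a1 list 1 and 10 of 18. Col15a1 itself was at 7.85 ± 2.40 CPM in Pi16-high and 7.13 ± 1.13 in Pi16-zero cells at P1 (interaction -2.86 ± 0.77, adjusted p = 0.023), a call that some alternatives lost. Gdf10 was at 22.9 ± 4.85 against 18.8 ± 6.17 CPM at P1 (interaction -2.54 ± 0.33), and Cxcl12 at 129 ± 11.6 against 314 ± 7.59 (-1.44 ± 0.15). Cxcl12 was thus lower in Pi16-high cells at both ages, and by more at P60.

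Some genes changed sides. Of the 51 genes called at both ages in opposite directions, Lum was lower in Pi16-high cells at P60 (log2 difference -1.21) and higher at P1 (1.15), Angptl7, a secreted angiopoietin-like protein, lower at P60 (-0.83) and higher at P1 (3.09), and Rbp4 lower at P60 (-1.46) and higher at P1 (1.32). Cd200, an inhibitory ligand for myeloid cells, stood at 59.9, 65.5 and 41.2 CPM against 29.4, 31.2 and 20.6 at P60 (1.01 ± 0.16) and at 36.4, 21.9 and 21.7 against 176, 134 and 117 at P1 (-2.37 ± 0.17). The groups of Cd200 did not overlap at either age. Ecscr, a cell surface regulator best known from endothelium, went the same way, at 125 ± 21.9 against 21.4 ± 7.81 CPM at P60 and 25.9 ± 9.62 against 44.4 ± 3.52 at P1. Gap43, a growth-cone protein, was higher in the members at both ages, at 26.9 ± 3.85 against 0.649 ± 1.12 CPM at P60 and 295 ± 20.6 against 81.5 ± 5.30 at P1.

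Pi16-high cells themselves differed widely between P60 and P1, in 2846 of 9943 genes (28.6%), 1481 (14.9%) higher and 1365 (13.7%) lower at P60. The libraries of the 2 ages did not overlap for 4493 genes (45.2%), and the count was 3137 without P60 replicate 3. This comparison shares its P60 libraries with those above, and age cannot be told apart from batch or sort in it. Members also had fewer Pi16 UMIs at P1, with medians of 6, 7 and 6 per library against 17, 17 and 15 at P60. The part of this Pi16 difference in the differences between the ages was not tested. Of 17 dissociation response genes, 10 were lower and 3 higher at P60, with a median log2 difference of -0.80, and the list summed to 3774 to 5051 CPM at P60 and 6173 to 7187 at P1. Its part in the differences between the ages was not tested. Of 14 complement genes tested, 12 were higher and 1 lower at P60, with a median log2 difference of 2.18 against 0.02 over all genes. C3, the central complement component, stood at 1087, 1072 and 1209 CPM at P60 and 1.58, 2.92 and 1.36 at P1 (9.10 ± 0.21, adjusted p = 2.2e-11). C4b stood at 153 ± 34.8 against 10.4 ± 5.20 CPM, and Cfb, a protease of the alternative pathway, at 45.6 ± 12 against 2.44 ± 0.882.

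Of 22 chemokine, cytokine and receptor genes tested, 13 were higher and 3 lower at P60. Cxcl13, which draws B cells, stood at 330, 362 and 593 CPM at P60 with 1 UMI at P1, a ratio of 855 (153 to 33770). Ccl8, a chemokine for monocytes, stood at 57.3, 48.9 and 43.5 CPM with no UMI at P1, at least 34.5-fold higher with 3 counts set as the floor over the P1 group. Retnla, a resistin-like secreted protein, stood at 175, 168 and 45.8 CPM with no UMI at P1, at least 93.3-fold higher. Immune cells of P60 had 16173 ± 3782 CPM of Retnla, and the part of free RNA in its level here was not tested. Likewise Cd74 and Lyz2, both immune markers, were higher at P60, at 89.2 ± 33.5 against 1.95 ± 0.845 and 75.1 ± 35.3 against 10.5 ± 5.01 CPM.

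Several metabolic and secreted genes were all but absent at P1. Adh7, an alcohol dehydrogenase, and Slc16a9, a carnitine transporter, had no UMI at P1 and were at least 36.0-fold and 34.9-fold higher, at 52.2 ± 6.57 and 52.3 ± 16.0 CPM. Inmt, a methyltransferase, was at 417 ± 109 CPM with 2 UMIs at P1 (ratio 437, 121 to 3609), and Ifi205, an interferon-induced gene, at 293 ± 19.4 with 1 (598, 107 to 23620). Pla1a, which also set Pi16-high apart from Pi16-zero cells, was at 290 ± 53.0 CPM with 2 UMIs at P1 (294, 81.2 to 2424).

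Most collagens were lower at P60, whereas the elastic fibre and proteoglycan lists held genes of both directions. Of 14 collagens tested, 11 were lower and 1, Col8a1, higher. Col1a1, the main chain of fibrillar collagen I, stood at 2021, 1568 and 2277 CPM at P60 against 7926, 8065 and 8859 at P1 (log2 difference -2.11 ± 0.12), and its partner Col1a2 at 2775 ± 451 against 6091 ± 343. Of 21 elastic fibre and microfibril genes 7 were higher and 7 lower, and of 19 proteoglycan and hyaluronan genes 9 were higher and 5 lower. Among the lower ones Fbn2, the fibrillin of developing tissue, was at 1.85 ± 0.444 against 367 ± 12.3 CPM (-7.61 ± 0.20) and Mfap2, a microfibril protein, at 256 ± 26.3 against 1596 ± 138. For Col1a1 and Fbn2 every P60 library lay below every P1 library. Dlk1, an imprinted inhibitor of adipocyte differentiation, stood at 2.62, 3.07 and 1.32 CPM against 9276, 9870 and 9701 (-11.96 ± 0.17, adjusted p = 1.2e-13).

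The imprinted genes Igf2, H19, Mest and Zim1 were lower too. In the IGF axis 4 of 9 genes tested were higher and 4 lower. Igf2, a growth factor, was at 0.605 ± 0.542 against 45.6 ± 2.76 CPM and H19, a noncoding RNA beside it, at 161 ± 66.3 against 6024 ± 284. Mest, a hydrolase-like protein, was at 39.6 ± 10.9 against 1967 ± 187 CPM and Zim1, a zinc finger gene, at 3.22 ± 1.82 against 107 ± 23.8. All 4 were many times higher at P1, as was Agtr2, an angiotensin receptor, at 1029 ± 53.8 CPM there against 10.1 ± 1.77 at P60. Of 10 cell cycle genes 7 were lower at P60 and none higher, with Cdk1 at 2.88 ± 2.11 against 36.3 ± 10.5 CPM.

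Of 23 genes of collagen processing, proteases and inhibitors, 11 were higher and 2 lower at P60. Mmp3 stood at 168 ± 27.9 against 3.54 ± 4.02 CPM, the protease Htra1 at 462 ± 6.06 against 42.8 ± 11.0, and the metalloprotease inhibitors Timp3 and Timp2 at 508 ± 119 against 108 ± 16.3 and 1544 ± 319 against 461 ± 20.4. Prg4, lubricin, stood at 57.3, 54.2 and 37.6 CPM with no UMI at P1, at least 34.7-fold higher. Of the 24 adventitial genes 17 were higher and 3 lower at P60. Akr1c18 was at 12 ± 2.25 against 91.8 ± 44.2 CPM and Bmp7 at 12.3 ± 0.0499 against 40.4 ± 7.33, while Ackr3 was at 359 ± 121 against 39.3 ± 2.78. Dpp4 was at 233 ± 50.2 CPM at P60 against 96.2 ± 7.04 at P1 (log2 difference 1.25 ± 0.18). Within P60 it was also higher in members with more Pi16, as given above, and P1 members had fewer Pi16 UMIs. The part of this in the Dpp4 difference was not tested. Sema3c, at 503 ± 35.4 CPM at P1 and 440 ± 114 at P60, did not pass the test (adjusted p = 0.34).

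Axon-related and retinoid genes were mixed between the ages. Of 21 axon guidance and neurotrophic genes 6 were higher and 7 lower, with the neurotrophin receptor Ngfr at 1.5 ± 0.195 against 21.1 ± 6.08 CPM and Robo2, a receptor for Slit proteins, with no UMI at P60 and 21 at P1, at least 36.7-fold lower. Of 13 retinoid genes 4 were higher and 5 lower, with the dehydrogenase Aldh1a1 at 97.0 ± 0.899 against 14.3 ± 3.28 CPM and Crabp1, a retinoic acid-binding protein, at 0.457 ± 0.286 against 30.9 ± 10.3. Of 6 Schwann cell markers 5 were lower at P60, with Mbp, a myelin protein, at 13.9, 17.7 and 9.56 CPM against 462, 97.8 and 82.7, highest in P1 replicate 1. The summed Schwann cell markers ran from 1112 to 3373 CPM in P1 members, and their part in the other differences was not tested.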

How the data were processed

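Single-cell RNA-seq libraries of 3 P1 and 3 P60 suspensions were analysed from the deposited matrices of raw UMI counts, which the authors made with Cell Ranger 2.0.2 against GRCm38.p5, per the labels, for 41605 genes. Strand handling is not given in the sources used here, and doublets were not removed beyond the limit of 5000 genes per barcode. Groups and replicate numbers came from the labels. UMIs of each cell group were summed per library, with at least 20 cells required, and tested with the edgeR 4.0.16 quasi-likelihood test (R 4.3.3, TMM scaling, edgeR's filter on low counts, Benjamini-Hochberg adjustment over all genes tested, threshold 0.05), with the library as a block within an age. The 12 gate genes got no test. Suspensions are pools of animals, with 3 pools per age. Where the library was a block, also in the interaction, p-values measure the spread over pools of the difference between cell groups. For P60 against P1 in Pi16-high cells, tested without a block, they measure the spread between pools of the same age.

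The text names, per comparison, the 10 higher and 10 lower called genes of largest change with at least 50 CPM in the higher group and the same direction in every library, the 4 called genes of largest change in each of 24 lists, and the gate genes and markers, as far as they bear on the description; any other gene was chosen after its values were seen. The values of 3 of these genes are not reported here. The members and lists were chosen with earlier results of these data known. Promoter windows came from RefSeq (GRCm38.p6). The scripts were tested on simulated data. Alternatives were DESeq2 1.42.0, no low-count filter, library-size scaling, no block or a replicate block, thinning to 2000 UMIs per cell, other Pi16 limits, other cell filters and leaving out each library.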

Additional observations from a re-analysis of the deposited data

Results flagged for a closer look

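The difference between Pi16-high and Pi16-zero cells itself differed between P60 and P1, by the interaction test of edgeR, for 454 genes. It was more positive at P60, on the log2 scale, for Sfrp5 (4.79), Bmp3 (3.4), Cd200 (3.38), Ecscr (3.23), Gap43 (3.06), Col8a1 (2.87), Rspo1 (2.85), D630033O11Rik (2.73), Crabp2 (2.16), Socs2 (2.1), Sbsn (1.87), Vtn (1.41) and Uchl1 (1.2). It was more negative at P60 for Angptl7 (-3.93), Ctsh (-3.05), Dlk1 (-2.97), Col15a1 (-2.86), Nmb (-2.83), Rbp4 (-2.78), Efemp1 (-2.75), Gdf10 (-2.54), Cyp1b1 (-2.51), C4b (-2.46), Cp (-2.25), Cntfr (-2.13), Apoe (-1.83) and Cxcl12 (-1.44). Some of these rest on low levels, as for Bmp3 in P60 Pi16-zero cells (2.55, 0 and 3.86 CPM) and Gap43 there (0, 1.95 and 0 CPM). Age cannot be told apart from batch or sort in this test. Members also had fewer Pi16 UMIs at P1 than at P60, and the part of this was not tested.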

How the results depend on the processing

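Counts of called genes depended on the test and the depth, and the cause was not tested. For Pi16-high against Pi16-zero cells at P60 (1319) the count was 563 with DESeq2, 436 with no replicate block, 844 with cells thinned to 2000 UMIs, 2750 without the negative gates on Pi16-zero cells and 798 to 1196 without 1 replicate, the lowest without P60 replicate 2. Against other Dcn cells (4989) it was 2969, 2619 and 3088 for the first 3 of these and 3618 to 5142 without 1 replicate. At P1 (1179) it was 400 with DESeq2, 442 after thinning, 1816 without negative gates and 777 to 999 without 1 replicate, the lowest without P1 replicate 1. For the interaction (454) it was 181 with DESeq2, 139 with no replicate block, 163 after thinning, 895 without negative gates, 713 with Osr2 left out of the gate and 291 to 476 without 1 replicate, with 301 and 291 without P1 replicates 1 and 2. For P60 against P1 (2846) it was 1459 after thinning and 2029 to 3137 without 1 replicate. With a replicate block it was 2828, and deviations of same-numbered libraries correlated at -0.054, 0.043 and -0.038, so the numbers did not pair them. The mean share of 25.1% was 28.0% at 2 Pi16 UMIs, 21.8% at 5, 27.9% with thinning before the gate, 34.2% without the Osr2 gate and 24.6% to 25.9% without 1 replicate. The alternative that leaves out Osr2 was chosen after seeing the data.

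Signs turned for few genes. Without negative gates on Pi16-zero cells the log2 difference was -1.91 for Acta2 and -2.92 for Krt19 at P60, and the interaction -0.54 for Acta2, -0.081 for Bmp3, -0.60 for Il33 and -2.60 for Lypd2. Against other Dcn cells Car3 was at -4.39 and Cfd at -3.59 with 5 Pi16 UMIs, and Cfd ran from -0.46 without P60 replicate 1 to 5.49 without replicate 2. Against Pi16-zero cells Car3 ran from -0.0125 without P60 replicate 1 to 1.93 without replicate 3. At P1, without 1 replicate, Mbp ran from -0.094 to 1.29, the lowest without P1 replicate 1, and it was at -0.28 without the top 5% of barcodes, and Lyz2 at 0.11 without the Osr2 gate. Cd74 was at -0.0088 between the ages without that gate. The remaining gene values kept their sign, 5581 with and 347 without their call. Low depth limits genes of a few UMIs in Pi16-zero cells, and cells of 1 or 2 Pi16 UMIs cannot be assigned.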
